A study of Homo sapiens with 6 samples.

Results

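The matrix metalloproteinases (MMPs) and their tissue inhibitors (TIMPs) were followed as a group of 10 named genes, MMP1, MMP3, MMP9, MMP10, MMP13, MMP14, MMP28, TIMP1, TIMP2 and TIMP3. All 10 were matched by GENCODE 29 symbol among the 58735 genes of the expression table. The cells were HOK-16B, human keratinocytes of the mouth that were immortalized, so every library comes from 1 line. The vehicle group (3 libraries) received the vehicle alone and the CBD group (3 libraries) received cannabidiol, a cannabinoid that does not intoxicate. The series text adds that cells of both groups were then exposed to an inflammatory stimulus. Stimulus, dose and time are not named in the labels, and the free-text description gives a different line number in each sample, while title and cell line tag give HOK-16B throughout. No unstimulated group was analysed here. Separate cultures per replicate are not stated, so p-values speak only of how far these libraries scatter, which may be technical.

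MMPs are zinc-dependent proteases that cut collagens, laminins, other matrix proteins and cell surface proteins. They are made as inactive proenzymes, in which a cysteine of the propeptide caps the catalytic zinc, and are secreted or anchored in the membrane. TIMPs are small secreted proteins that fill the active site of the mature enzymes. In inflamed oral epithelium and in wounds, collagenases, stromelysins and gelatinases are known to be induced, in part through AP-1, and the balance of proteases and inhibitors governs loss of matrix around the teeth.

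Gene expression is given as FPKM, fragments per kilobase of gene, scaled to the size of the library, which can be compared between genes. Depth was 18213784 to 22158614 fragments in genes per library. A gene of 1 kb with 3 fragments, the limit that a count of 0 allows, would have 0.126 to 0.153 FPKM, and this covers counting error only. Vehicle replicate 1 stood apart from the rest, with a first principal component score of -25.1 against -9.36 and 0.74 in the other vehicle libraries and 10.3 to 12.7 in the CBD libraries. The mean GC content of the counted transcripts was 49.6% to 50.3% in vehicle and 50.7% to 50.8% in CBD libraries, and the log2 difference increased with GC content (Spearman 0.67 across 12510 genes, not independent of each other). Values with a GC trend removed and without vehicle replicate 1 are therefore given for each of the 5 tested members.

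The labelled cell type was checked against markers. All 12 keratinocyte markers passed the filter used for testing, a mean of at least 1 FPKM over the 6 libraries, and their summed level was 10199 to 12073 FPKM in vehicle and 12585 to 13175 FPKM in CBD libraries. Of 10 fibroblast markers 1 passed (COL1A1), with a summed level of 7.17 to 7.97 FPKM in vehicle and 9.17 to 9.27 FPKM in CBD libraries, and PDGFRA was listed at 0. Of 10 myeloid markers 2 passed (CSF1R and CD14), at a summed 3.65 to 4.86 and 4.55 to 5.47 FPKM, and AIF1, LILRB4 and TYROBP were listed at 0. The 8 endothelial markers summed to at most 0.200 FPKM in any library, and the 6 melanocyte markers, of which PMEL passed, to at most 1.69 FPKM. The part that these marker levels play in the differences below was not tested. In such bulk samples fewer expressing cells and less RNA per cell cannot be told apart.

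RefSeq promoter windows (GRCh38.p14, 250 bases before to 50 after the annotated start) were at hand for 4 of the 10 genes: MMP14, TIMP1, TIMP3 and MMP10. All 4 are shown, and no window was at hand for the other members, MMP28 and TIMP2 among them. The first 3 belong to genes with abundant transcripts in these cells and the fourth to a gene with no counted fragment. Capitals mark matches, on either strand, to 4 motifs. The AP-1 element was searched as TGANTCA. The core bound by ETS factors was searched as AGGAAG. The TATA box was searched as TATAAA, and the GC box of Sp1 as GGGCGG, and no matches overlapped each other. Each is written 5′ to 3′ on the strand of the gene.
MMP14 (chr14:22836335-22836634, plus strand): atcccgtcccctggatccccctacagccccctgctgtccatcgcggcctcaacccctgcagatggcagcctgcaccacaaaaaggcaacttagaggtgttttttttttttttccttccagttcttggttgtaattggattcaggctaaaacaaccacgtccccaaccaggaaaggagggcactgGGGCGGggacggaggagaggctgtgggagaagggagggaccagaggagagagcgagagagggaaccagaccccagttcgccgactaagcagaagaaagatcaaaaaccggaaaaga
TIMP1 (chrX:47582186-47582485, plus strand): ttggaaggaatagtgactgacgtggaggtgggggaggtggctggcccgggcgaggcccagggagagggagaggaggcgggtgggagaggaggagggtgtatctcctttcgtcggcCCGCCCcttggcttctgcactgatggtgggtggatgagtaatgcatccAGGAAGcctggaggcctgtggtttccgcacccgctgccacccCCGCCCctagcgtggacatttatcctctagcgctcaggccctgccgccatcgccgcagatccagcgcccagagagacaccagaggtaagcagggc
TIMP3 (chr22:32801455-32801754, plus strand): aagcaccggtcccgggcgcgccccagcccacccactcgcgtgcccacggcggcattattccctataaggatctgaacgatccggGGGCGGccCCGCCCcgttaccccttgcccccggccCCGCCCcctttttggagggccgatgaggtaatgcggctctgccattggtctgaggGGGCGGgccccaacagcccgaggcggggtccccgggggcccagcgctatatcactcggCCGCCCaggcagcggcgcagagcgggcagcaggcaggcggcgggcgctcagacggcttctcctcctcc
MMP10 (chr11:102780579-102780878, minus strand): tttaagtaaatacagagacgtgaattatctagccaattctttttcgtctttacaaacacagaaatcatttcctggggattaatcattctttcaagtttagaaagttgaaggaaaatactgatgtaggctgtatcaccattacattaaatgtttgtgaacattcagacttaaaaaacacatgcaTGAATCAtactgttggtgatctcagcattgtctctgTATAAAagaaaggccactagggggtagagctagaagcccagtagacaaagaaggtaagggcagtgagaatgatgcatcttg

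The MMP10 window held 1 AP-1 match, from base -67 to -61 relative to the start, and 1 TATA match from -31 to -26, with no Sp1 match. The MMP14 window held 1 Sp1 match (-66 to -61) and no AP-1 or TATA match. The TIMP1 window held 2 Sp1 matches and 1 ETS match, and the TIMP3 window held 5 Sp1 matches. Among 35116 RefSeq promoter windows of the same length, 7.71% held the AP-1 letters, 33.6% the ETS, 11.5% the TATA and 45% the Sp1 letters. GC content of the windows was 55.0% for MMP14, 65.0% for TIMP1, 72.7% for TIMP3 and 36.3% for MMP10. A match describes letters only and is not a binding site.

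The comparison of CBD with vehicle asked whether cannabidiol pretreatment altered transcripts of these proteases and inhibitors in stimulated keratinocytes. The cells expressed the membrane-anchored protease gene MMP14 most, followed by TIMP2 and TIMP1, then by MMP28 and TIMP3, with MMP9 at a mean under 1 FPKM and the collagenase and stromelysin genes at a few fragments or none. MMP28 had 9.82 ± 1.32 FPKM with vehicle and 13.5 ± 0.459 FPKM with CBD (SD, n = 3), and its adjusted p of 0.0605 (limma), the smallest of the tested members in this fit, missed the threshold of 0.05. MMP14 and TIMP3 also lay higher and TIMP1 lower in every CBD library than in any vehicle library, while TIMP2 overlapped. Of the 5 members that passed the filter on low values, 0 were called by limma with Benjamini-Hochberg adjustment over all 12517 tested genes, where 0.352% of the tested genes were called (0.256% higher and 0.0959% lower). With the GC trend removed 0 members were called as well, against 0.0879% of genes. In that fit 3 members had an unadjusted p under 0.05 (limma), as had 2475 of its 12510 genes. Without that removal 4 of 5 had an unadjusted p under 0.05 (limma, 31.4% of all tested genes). On fragments recovered from the FPKM values limma-voom called 1 of 5 (13.7%). The groups did not overlap for 4 of the 5, 3 higher and 1 lower, where 40.7% of all tested genes did not overlap, 18.7% higher and 21.9% lower. The median log2 difference of the 5 was 0.17, against -0.01 over all tested genes, and 0.12 against -0.03 with the GC trend removed.

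**Figure D1:**
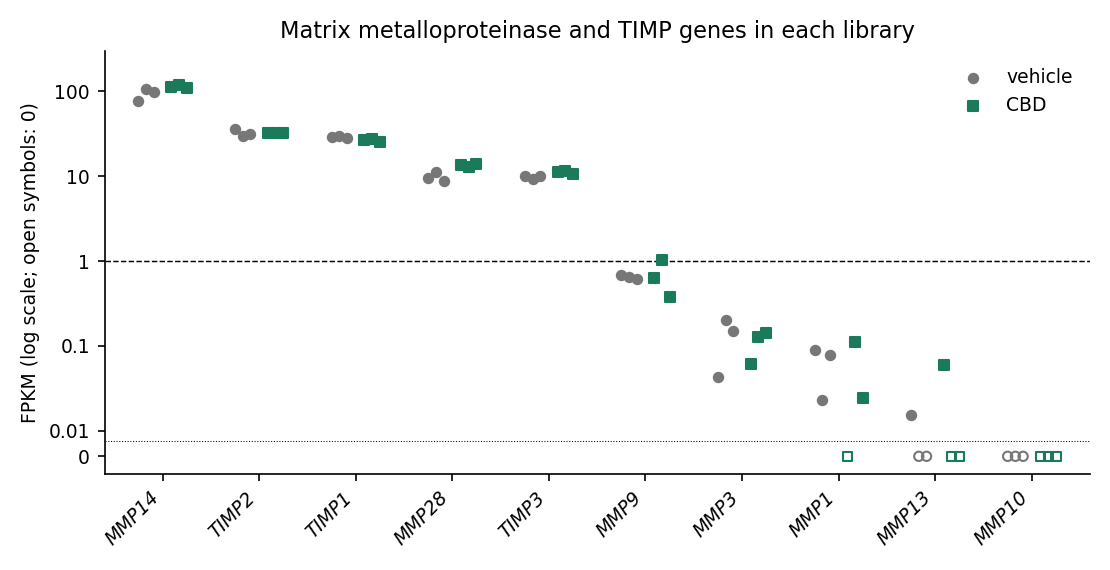
FPKM of the 10 genes (log axis, with open symbols for a listed 0) in the 3 vehicle (grey circles) and 3 CBD libraries (green squares), ordered by mean. The dashed line marks 1 FPKM, the mean needed for testing. MMP14 and the TIMP genes and MMP28 sit above it, MMP9 at 0.373 to 1.02 FPKM with a mean below it, and the remaining 4 metalloproteinase genes at 0.200 FPKM or less.

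MMP14 encodes MT1-MMP, a transmembrane protease that cuts fibrillar collagen and, bound to TIMP2, activates proMMP2. The gene lies on chromosome 14 (22836557 to 22849027, plus strand, GENCODE 29 span on GRCh38). Vehicle replicates 1 to 3 had 77.4, 105 and 98.5 FPKM and CBD replicates 1 to 3 had 112, 119 and 109 FPKM, from 7896 to 12300 fragments per library. The groups did not overlap, and vehicle replicate 1 was the lowest of all libraries. The mean was 93.6 ± 14.4 FPKM with vehicle and 113 ± 5.17 FPKM with CBD, and the log2 difference of log2(FPKM + 1) values was 0.28 ± 0.11 (SE; 95% interval 0.02 to 0.55; limma adjusted p = 0.139). Without vehicle replicate 1 the difference was 0.15 (adjusted p = 0.126, limma). With the GC trend removed it was 0.12 (-0.07 to 0.31, limma adjusted p = 0.443), and MMP14 transcripts have a GC content of 58.8%, against a median of 48.9% for the tested genes. Once the trend was removed, 2 vehicle values (105 and 104 FPKM) lay within the CBD range of 104 to 112 FPKM. With the trend removed and vehicle replicate 1 left out, the MMP14 difference was 0.03 (limma adjusted p = 0.715). In that fit MMP28 had 0.24, TIMP3 0.19 and TIMP1 -0.24 (limma adjusted p = 0.163, 0.166 and 0.0949).

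MMP28 encodes epilysin, a secreted metalloproteinase of epithelia that is known from keratinocytes at wound edges. It lies on chromosome 17 (35756249 to 35795707, minus strand). Vehicle replicates 1 to 3 had 9.54, 11.3 and 8.67 FPKM and CBD replicates 1 to 3 had 13.7, 13.0 and 13.8 FPKM, from 486 to 933 fragments. All CBD values lay above all vehicle values, and vehicle replicate 2 was the nearest to them. The log2 difference was 0.43 ± 0.09 (SE; 95% interval 0.22 to 0.64; limma adjusted p = 0.0605), a ratio of mean FPKM of 1.37. MMP28 ranked within the 3.12% of tested genes with the smallest p. Its adjusted p was under 0.05 with limma-voom on recovered fragments (0.48, adjusted p = 0.0162), at a filter of 5 FPKM (limma adjusted p = 0.0371, where 10.1% of tested genes were called), with library quality weights (limma adjusted p = 0.00189, 44.5% called) and without vehicle replicate 2 (0.52, limma adjusted p = 0.0173, 18.8% called). Over all 20 alternative settings the adjusted p ran from 0.00189 to 0.209. MMP28 is GC-rich (61.5%), and with the GC trend removed the difference was 0.21 (0.04 to 0.37, limma adjusted p = 0.181), with 9.50 to 11.3 FPKM in vehicle and 11.9 to 12.8 FPKM in CBD libraries. Without vehicle replicate 1 it was 0.41 (limma adjusted p = 0.0750). The gene span crosses that of TAF15 on the opposite strand (27.5 FPKM), with 0 exonic bases in common. Strand setting is not given in the sources used here, so unspliced TAF15 fragments within MMP28 exons could not be told apart.

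MMP9 encodes gelatinase B, which degrades denatured collagen and basement membrane collagen and is stored in quantity by neutrophils. It lies on chromosome 20 (46008908 to 46016561). It was read by 37, 33 and 28 fragments in vehicle and 35, 55 and 18 fragments in CBD libraries, or 0.693, 0.644 and 0.611 FPKM against 0.628, 1.02 and 0.373 FPKM. The CBD libraries held both the highest and the lowest value, so the groups overlapped, with means of 0.649 ± 0.0414 and 0.673 ± 0.324 FPKM (SD, n = 3). The mean was below the filter of 1 FPKM. An exact permutation test over the 20 splits gave p = 1.0 (two-sided, smallest possible 0.1), and without the filter the log2 difference was 0.00 with a 95% interval of -0.37 to 0.38. That interval bounds, on the log2(FPKM + 1) scale, what these libraries could show. MMP9 shares 430 exonic bases with the antisense gene SLC12A5-AS1 (0.115 FPKM).

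The remaining metalloproteinase members lie in 1 cluster on chromosome 11. MMP1 encodes interstitial collagenase, MMP3 and MMP10 encode stromelysins, which cut many matrix proteins and activate other proMMPs, and MMP13 encodes a further collagenase. MMP3 was read by 2, 9 and 6 fragments in the vehicle libraries and 3, 6 and 6 in the CBD libraries (0.0427 to 0.200 and 0.0614 to 0.142 FPKM). MMP1 was read by 4, 1 and 3 fragments in vehicle and 0, 5 and 1 in CBD libraries (at most 0.110 FPKM). Both genes overlapped between groups (exact permutation p = 0.7 for MMP3 and 0.8 for MMP1, two-sided).

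MMP13 was read by 1 fragment in vehicle replicate 1 and 4 in CBD replicate 1, and was listed at 0 in the other 4 libraries. MMP10 was listed at 0 in all 6 libraries. For its length of 1758 bases the limit of 3 fragments per library is 0.0715 to 0.0870 FPKM. No difference in these genes was detectable at this depth, and no fold is given. Without the filter the 95% interval of the log2(FPKM + 1) difference was -0.18 to 0.13 for MMP3, -0.15 to 0.09 for MMP1 and -0.05 to 0.09 for MMP13. At levels this far below 1 FPKM the added 1 holds these intervals near 0, so they do not bound a fold. With 0.1 added in its place the difference was -0.09 for MMP3, -0.22 for MMP1 and 0.15 for MMP13, the last 2 outside those intervals. MMP1 and MMP3 share 150 and 32 exonic bases with the pseudogene WTAPP1 on the opposite strand, itself listed at 0 in every library.

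The low level held for the whole cluster. From MMP7 to MMP13, bases 102520508 to 102955734 of chromosome 11, there are 9 MMP genes, and 5 of them (MMP8, MMP10, MMP12, MMP20 and MMP27) had no fragment in any library. The 9 genes together had 7, 10 and 10 fragments in the vehicle libraries and 7, 12 and 7 in the CBD libraries. Expressed genes flank it closely, named here after their values were seen. On one side TMEM123, which encodes a cell surface mucin-like protein, had 80.9 ± 6.41 FPKM with vehicle and 73.4 ± 0.780 FPKM with CBD, and BIRC2, an inhibitor of apoptosis, 27.6 ± 2.52 and 24.5 ± 0.464 FPKM. On the other side DCUN1D5, which takes part in neddylation of cullins, had 40.6 ± 1.53 and 35.7 ± 1.43 FPKM (SD, n = 3 per group). None of these neighbours passed the test (limma adjusted p = 0.190, 0.154 and 0.0852).

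**Figure D2:**
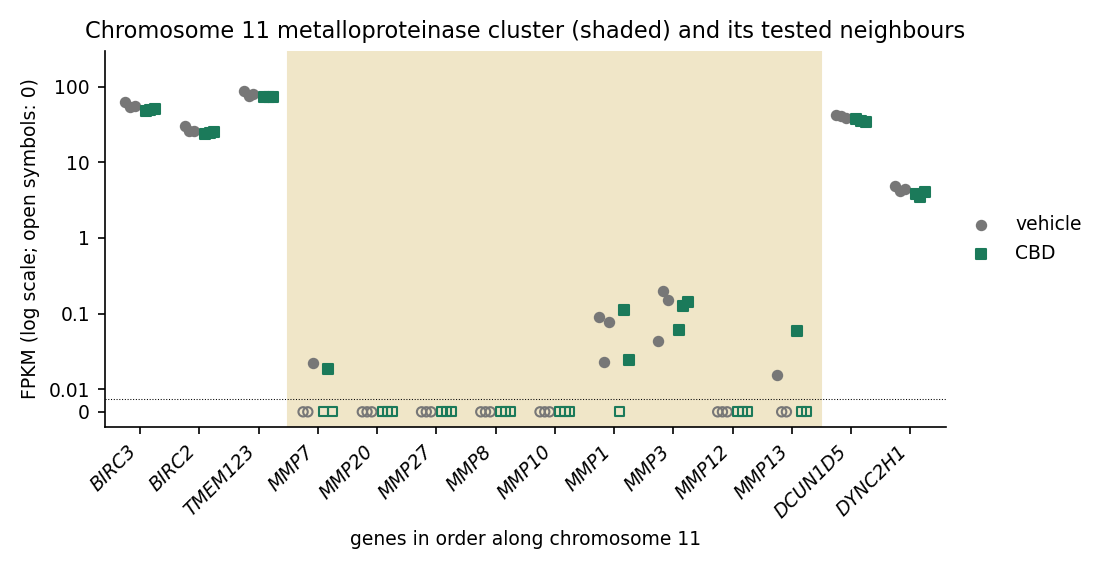
FPKM (log axis, open symbols for a listed 0) of the 9 metalloproteinase genes of the chromosome 11 cluster (shaded) and of the nearest tested genes on both sides, in gene order, for 3 vehicle (grey circles) and 3 CBD libraries (green squares). Within the cluster no value exceeds 0.200 FPKM, while the neighbours reach 87.7 FPKM.

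Among the inhibitors, TIMP2 is the one that links MMP14 to proMMP2, and its gene lies on chromosome 17 (78852977 to 78925387). It had 36.2, 29.8 and 31.1 FPKM in vehicle and 31.9, 32.2 and 32.4 FPKM in CBD replicates 1 to 3. Vehicle replicate 1 was the highest and vehicle replicate 2 the lowest of the 6, so the CBD values lay inside the vehicle range. The means were 32.4 ± 3.41 and 32.2 ± 0.263 FPKM, with a log2 difference of -0.003 (95% interval -0.18 to 0.17, limma adjusted p = 0.983). Without vehicle replicate 1 the sign turned, to 0.08 (-0.01 to 0.17, limma adjusted p = 0.217), and with the GC trend removed it was -0.05 (limma adjusted p = 0.762).

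TIMP1, on the X chromosome (47582313 to 47586789), encodes a secreted inhibitor of most soluble MMPs that also acts as a growth factor. It had 28.8, 29.7 and 28.2 FPKM in vehicle and 26.4, 27.5 and 25.01 FPKM in CBD replicates 1 to 3. Each CBD value was below each vehicle value, with a narrow gap. The means were 28.9 ± 0.790 and 26.3 ± 1.24 FPKM, and the log2 difference was -0.13 ± 0.05 (SE; limma adjusted p = 0.141). TIMP1 is GC-rich (58.0%) and lay opposite to the general trend of such genes. With the GC trend removed its difference was larger, -0.28 (95% interval -0.40 to -0.16, limma adjusted p = 0.0803), with 29.7 to 32.1 FPKM in vehicle and 23.9 to 26.0 FPKM in CBD libraries. Without vehicle replicate 1 it was -0.13 (limma adjusted p = 0.156). The adjusted p of TIMP1 was above 0.05 in all 20 alternatives (0.0645 to 0.350).

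TIMP3 encodes an inhibitor that binds to the extracellular matrix and also blocks ADAM sheddases such as ADAM17. It lies on chromosome 22 (32801701 to 32863043), within the span of SYN3 on the opposite strand (0.00552 FPKM, 0 exonic bases in common). The values were 9.99, 9.17 and 10.1 FPKM in vehicle and 11.2, 11.4 and 10.6 FPKM in CBD replicates 1 to 3. The groups did not overlap, and the nearest values were 10.1 and 10.6 FPKM. The means were 9.75 ± 0.507 and 11.1 ± 0.462 FPKM, a log2 difference of 0.17 ± 0.06 (SE; limma adjusted p = 0.109). TIMP3 has a GC content of 48.7%, near the median of tested genes, and its difference was as large with the GC trend removed (0.17, limma adjusted p = 0.160) and without vehicle replicate 1 (0.18, limma adjusted p = 0.111). Only with library quality weights was TIMP3 called (0.13, limma adjusted p = 0.0280, 44.5% of tested genes called), as was MMP14 (0.21, limma adjusted p = 0.0180).

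**Figure D3:**
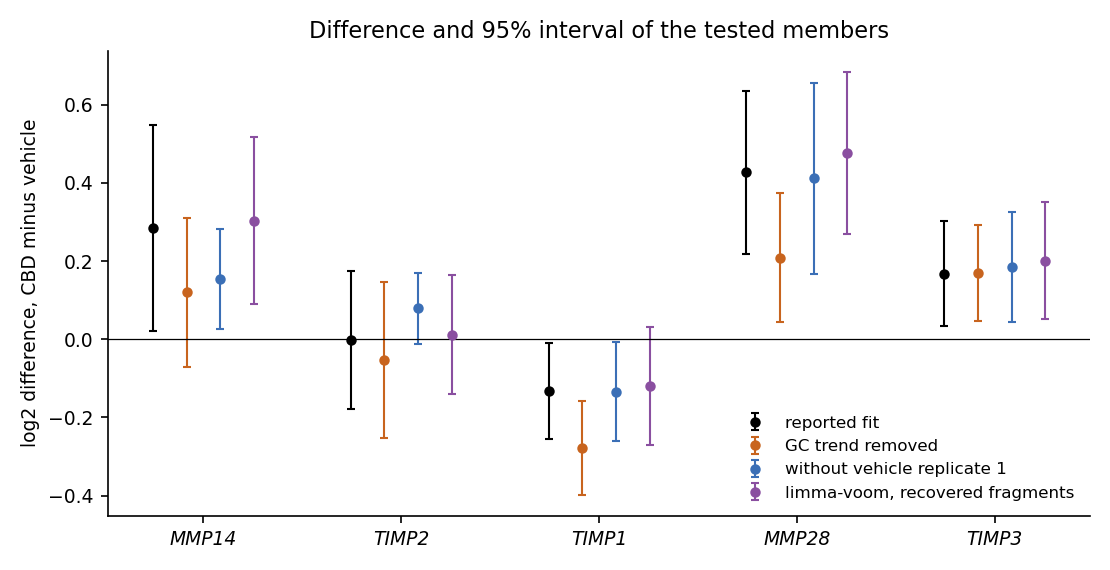
Log2 difference of log2(FPKM + 1) values, CBD minus vehicle (for limma-voom, of its depth-scaled log2 counts), with its 95% interval for the 5 tested members, in the reported fit (black), with the GC trend removed (orange), without vehicle replicate 1 (blue) and by limma-voom (purple). MMP28 lies at 0.43 and at 0.21 with the GC trend removed, TIMP3 at 0.17 in both, and TIMP1 at -0.13 and -0.28.

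By mean FPKM over the 6 libraries the order was MMP14 (103), TIMP2 (32.3), TIMP1 (27.6), MMP28 (11.7), TIMP3 (10.4), MMP9 (0.661), MMP3 (0.120), MMP1 (0.0540), MMP13 (0.0124) and MMP10 (0). TIMP2 and TIMP1 were nearly level in vehicle replicate 2 (29.8 and 29.7 FPKM), and did not overlap with CBD. MMP28 and TIMP3 overlapped with vehicle (8.67 to 11.3 and 9.17 to 10.1 FPKM), whereas with CBD MMP28 (13.0 to 13.8 FPKM) lay above TIMP3 (10.6 to 11.4 FPKM). MMP3, MMP1 and MMP13 could not be ordered beyond their spread.

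The family was then summed over 23 MMP and 4 TIMP genes. MMP14 made up 78.8% to 83.2% of the summed MMP FPKM with vehicle and 80.1% to 81.6% with CBD, and MMP28 7.33% to 9.71% and 8.88% to 10.1%. Of the summed TIMP FPKM, TIMP2 made up 43.2% to 48.2% with vehicle and 45.2% to 47.7% with CBD. The share of TIMP1 was 38.3% to 43.2% and 36.8% to 38.5%, and that of TIMP3 was 13.3% to 14.5% and 15.5% to 16.1%. The MMP sum was 98.3, 128 and 118 FPKM in the vehicle libraries and 138, 146 and 136 FPKM in the CBD libraries. The TIMP sum was 75.1, 68.9 and 69.4 FPKM against 69.8, 71.3 and 68.0 FPKM.

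The ratio of the MMP sum to the TIMP sum was 1.31, 1.86 and 1.70 with vehicle and 1.98, 2.04 and 2.001 with CBD. Every CBD ratio was above every vehicle ratio, and vehicle replicate 1 was the lowest. Among single tested genes 40.7% did not overlap between the groups. The ratio holds values with the GC trend left in. With that trend removed the log2 difference of MMP14, the largest part of the MMP sum, went from 0.28 to 0.12. The ratio of MMP14 to TIMP2, the pair that forms the proMMP2 activating complex, was 2.14, 3.53 and 3.17 with vehicle and 3.51, 3.69 and 3.36 with CBD, so vehicle replicate 2 lay within the CBD range. These sums are descriptions of transcript levels and were not tested.

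**Figure D4:**
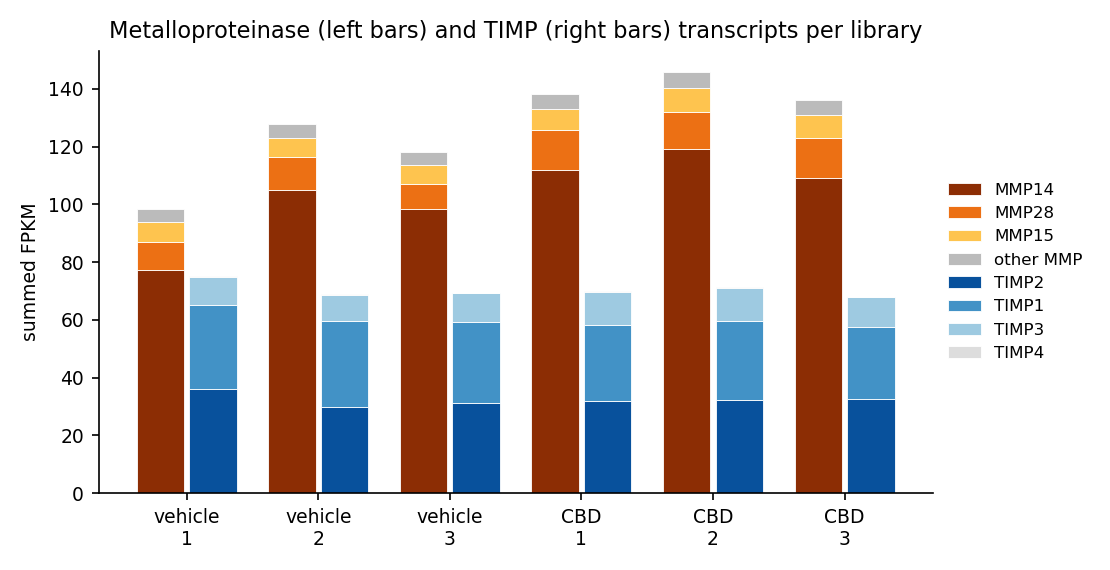
Summed FPKM of MMP genes (left bar of each pair) and TIMP genes (right bar) in each of the 6 libraries, divided by gene. MMP14 is the largest block of every left bar, the MMP sum is 98.3 to 128 FPKM with vehicle and 136 to 146 FPKM with CBD, and the TIMP sums lie between 68.0 and 75.1 FPKM.

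Of the 17 other MMP and TIMP genes, 3 passed the filter and 0 were called by limma (0.352% of all tested genes). Of the 3, 1 had an unadjusted p under 0.05 (31.4% of all tested genes) and 1 was called by limma-voom (13.7%). MMP15, another transmembrane MMP, had 6.81, 6.80 and 6.34 FPKM in vehicle and 7.47, 8.14 and 8.09 FPKM in CBD replicates 1 to 3. Its log2 difference of 0.22 (limma adjusted p = 0.0745) became -0.07 (limma adjusted p = 0.626) with the GC trend removed. MMP2, the gelatinase whose proenzyme is activated by MMP14, had 1.30 ± 0.138 and 1.39 ± 0.248 FPKM (SD, n = 3; limma adjusted p = 0.745), and the membrane-bound MMP17 1.44 ± 0.144 and 1.53 ± 0.0956 FPKM (limma adjusted p = 0.679).

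The genes whose pattern over the 6 libraries was most like that of MMP28, by Pearson correlation of log2(FPKM + 1) among 12517 tested genes, were SELENOO (0.997), RETSAT (0.994) and CCDC85C (0.993). For MMP14 they were NBL1 (0.999), NPC2 (0.999) and MSLN (0.998). With 6 libraries such values are common, since 251 genes reached 0.95 with MMP28 and 537 with MMP14.

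Genes that act on MMP proteins or on MMP transcription were read from the same fit. Among 12 tested activators and regulators of MMP protein, 1 rose and 0 fell by limma, with a median log2 difference of -0.01. At an unadjusted p under 0.05 there were 5 of the 12 (31.4% of all tested genes), and limma-voom called 3 (13.7%). LRP1, an endocytic receptor that clears MMPs and their complexes with TIMPs, rose from 5.06 ± 0.267 to 6.97 ± 0.104 FPKM (SD, n = 3; limma adjusted p = 0.0452), and its difference of 0.40 became 0.22 (limma adjusted p = 0.132) with the GC trend removed. Among 13 tested AP-1 and ETS factors, which bind MMP promoters, JUND rose and FOSL1 fell by limma (0.352% of all tested genes called). At an unadjusted p under 0.05 there were 9 of the 13 (31.4% of all tested genes), and limma-voom called 9 of the 13 (13.7%). The groups did not overlap for 7 higher and 2 lower genes of this list, against 18.7% and 21.9% of all tested genes. The median of this list was 0.33, or 0.15 with the GC trend removed, and its median GC content was 56.9%. FOSL1, a FOS-family AP-1 subunit, had 4.75, 5.12 and 4.94 FPKM in vehicle and 3.38, 2.70 and 2.65 FPKM in CBD libraries, and was also called with the GC trend removed (-0.80, limma adjusted p = 0.0423). JUND, a JUN-family subunit, had 36.7 ± 2.82 FPKM with vehicle and 53.5 ± 1.93 FPKM with CBD (SD, n = 3), a log2 difference of 0.53 (limma adjusted p = 0.0452), and was not called with the GC trend removed (0.15, limma adjusted p = 0.377). Without vehicle replicate 1 the limma adjusted p was 0.0494 for LRP1, 0.0494 for JUND and 0.0508 for FOSL1, and no gene of the table was called by limma on leaving out CBD replicate 1, CBD replicate 2 or vehicle replicate 3 (2594, 2454 and 2943 genes at an unadjusted p under 0.05).

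**Figure D5:**
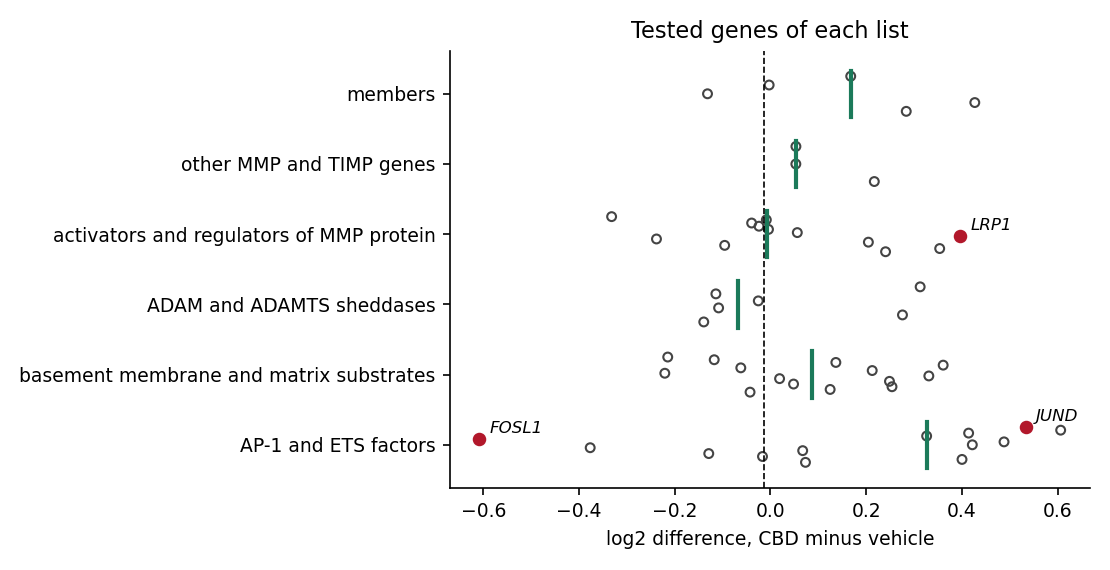
Log2 difference of log2(FPKM + 1), CBD minus vehicle, of each tested gene in 6 lists (rows, with the 10 named MMP and TIMP genes in the top row as members). Filled red points passed at an adjusted p under 0.05 (LRP1, JUND and FOSL1), green bars are list medians and the dashed line is the median of all tested genes (-0.01).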

How the data were processed

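The values are FPKM, deposited by the authors as 1 column per library with no pooling, per the file headers. HISAT2 2.0.5 is listed in the submitters' processing notes, as is featureCounts 1.5.0-p3. Genome build, annotation, strand setting and filters are not given in the sources used here. Such a unit does not correct for GC content. The mean GC content of the counted transcripts differed between the groups. GC-dependent yield and a response of GC-rich genes to CBD therefore cannot be told apart, and removing the trend may remove either.

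All 58735 identifiers matched GENCODE 29 (GRCh38), whose exon-union lengths turned 100% of FPKM values into whole fragments (tolerance 0.01 of a fragment). Replicate pairs differed beyond sampling noise (chi-square per gene 2.95 to 16.5). This spread may be technical, so it does not show that the replicates were independent. Each library was counted as 1 replicate by assumption.

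Differences were computed on log2(FPKM + 1), which understates changes of low genes, for 12517 genes with a mean of at least 1 FPKM. The fit was limma 3.58.1 (R 4.3.3) with a group term alone, a variance trend with intensity, two-sided, with Benjamini-Hochberg adjustment over all tested genes at 0.05. It was also run on simulated counts that had the same dispersion for every gene, no GC trend and no outlying library. That run therefore does not show how the fit behaves on these libraries. The alternatives removed a GC trend by loess (span 0.3), recovered fragments for limma-voom, left out each library, or changed pseudocount, filter, scaling, prior, weights and block. Count-based quasi-likelihood tests were not used. Exact permutation tests enumerated 20 splits. Tables and plots used Python 3.11.15, pandas 2.3.3, numpy 2.4.6 and matplotlib 3.10.9.

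The members, gene lists and tests were chosen with earlier results of these data known. Named were all members, in each other list the called genes or else the 2 with the smallest p, other MMP and TIMP genes of at least 1 FPKM, and the 3 genes most like the member with the smallest p and the one with the highest mean. BIRC2, TMEM123 and DCUN1D5 were added after their values were seen.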

Additional observations from a re-analysis of the deposited data

How the results depend on the processing

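The numbers of genes called moved widely with the processing, and the cause was not tested. Against 44 called genes, and 0 of the 5 tested members, there were 732 genes and 1 member (MMP28) at a filter of 5 FPKM, 5574 and 3 (MMP28, MMP14 and TIMP3) with library quality weights, whose fit stopped before convergence, and 1714 and 1 (MMP28) by limma-voom. Quantile normalization gave 73 genes, equal FPKM sums 4, no intensity trend 1 and the GC trend removed 11, each with 0 members. No filter, a filter of 0.1 FPKM, the replicate block, and the GC trend removed without vehicle replicate 1 gave 0 genes by limma, though 4670, 4425, 3676 and 2382 genes had an unadjusted p under 0.05. Leaving out 1 library gave 0 to 2351 genes and 0 to 1 members. It gave 0 genes without CBD replicate 1, CBD replicate 2 or vehicle replicate 3 (2594, 2454 and 2943 at an unadjusted p under 0.05), 1 without CBD replicate 3, 81 without vehicle replicate 1, and 2351 with 1 member (MMP28) without vehicle replicate 2. For the tested members, 88 of 100 alternative values kept their direction and side of the threshold, 6 passed it in the same direction, and 6 turned sign, all of TIMP2, which had -0.003. They were 0.0062 with median-ratio scaling, 0.045 with library quality weights, 0.0448 with the GC trend removed without vehicle replicate 1, 0.012 by limma-voom, 0.0789 without vehicle replicate 1 and 0.0034 without CBD replicate 1. Leaving out each library in turn, TIMP2 ran from -0.058 to 0.0789. Deviations from the group mean correlated at -0.0027, 0.05 and 0.02 between same-numbered libraries, and at -0.0522 to 0.0282 between differently numbered ones. With 3 libraries per group these values cannot show whether the numbers mark a shared culture or day. Under the replicate block the members kept their direction and MMP28 had an adjusted p of 0.0975 (limma). The planned edgeR and DESeq2 fits were not run, and limma-voom on the recovered fragments was the only count-based alternative. With 0 to 9 fragments per library, small differences of MMP1, MMP3, MMP10 and MMP13 were out of reach at this depth.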

Other observations

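Genes on the far side of MMP activity were read as lists, by limma over all genes. Of all tested genes 0.352% were called by limma, 31.4% had an unadjusted p under 0.05 and 13.7% were called by limma-voom. Of 16 ADAM and ADAMTS genes, sheddases and matrix proteases that TIMP3 can inhibit in part, 6 were tested and 0 called (3 at an unadjusted p under 0.05, 2 by limma-voom), with a median log2 difference of -0.07. The groups did not overlap for 2 higher and 2 lower genes of the 6, against 18.7% and 21.9% of all tested genes. ADAM15, a membrane metalloprotease, had 26.7, 31.4 and 29.7 FPKM in vehicle and 35.4, 35.5 and 35.7 FPKM in CBD replicates 1 to 3, with no overlap (limma adjusted p = 0.0668), and its difference of 0.28 became 0.04 with the GC trend removed. ADAMTSL4, an ADAMTS-like matrix protein without protease activity, had 5.31 ± 0.669 and 6.82 ± 0.622 FPKM (SD, n = 3; limma adjusted p = 0.0923), and its difference of 0.31 became 0.08 (limma adjusted p = 0.545) with the GC trend removed. ADAM17, the sheddase of TNF and of EGF receptor ligands, had 5.99 ± 0.336 and 5.48 ± 0.381 FPKM (limma adjusted p = 0.285) and is named after its values were seen.

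Of 14 tested basement membrane and matrix substrates 0 were called by limma (0.352% of all tested genes). At an unadjusted p under 0.05 there were 8 (31.4% of all tested genes), and limma-voom called 4 (13.7%). Their median was 0.09, or -0.01 with the GC trend removed. LAMA5, a laminin chain, had 52.0 ± 5.16 and 66.9 ± 2.28 FPKM (SD, n = 3; limma adjusted p = 0.0605), and COL1A1, a collagen chain usually made by fibroblasts, had 7.13 ± 0.416 and 8.69 ± 0.0249 FPKM (limma adjusted p = 0.0608). With the GC trend removed their differences of 0.36 and 0.25 became 0.07 and 0.05. Among keratinocyte markers 0 of 12 were called by limma, with 5 at an unadjusted p under 0.05 (31.4% of all tested genes) and 4 called by limma-voom (13.7%). KRT16 had 116 ± 17.7 and 153 ± 6.81 FPKM (limma adjusted p = 0.0763) and KRT14 had 2873 ± 265 and 3488 ± 77.3 FPKM (limma adjusted p = 0.0855). With the GC trend removed their differences of 0.42 and 0.28 became 0.22 (limma adjusted p = 0.181) and 0.11 (limma adjusted p = 0.405).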
